A study of Mus musculus with 4 samples.

Results

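Prnd, Pglyrp1 and Txnip are 3 of 23278 genes in a table of RNA sequencing of whole mouse retinas at postnatal day 10. They were taken by symbol and selected on their FPKM values, which were higher with stabilized beta-catenin on both Ndp backgrounds. That pattern is therefore described here without a test. Retinas of 4 genotypes on a mixed background (at least C57BL6 and 129) gave 1 library each. The stabilized Ndp knockout, labelled NdpKO;Ctnnb1flex3/+;Pdgfb-CreER, lacked Ndp and carried the other alleles as well. The Ndp knockout, labelled NdpKO, lacked Ndp alone. The stabilized library, labelled Ctnnb1flex3/+;Pdgfb-CreER, had intact Ndp, and the WT library had none of these changes. Ctnnb1flex3 yields a stabilized beta-catenin once Cre has recombined it, and Pdgfb-CreER is a Cre that tamoxifen activates and that Pdgfb regulatory sequence expresses mainly in endothelial cells. Mice of every genotype, WT included, were injected with 20 μg of 4HT, the active tamoxifen metabolite, at postnatal day 3. Both stabilized libraries carried Ctnnb1flex3 and Pdgfb-CreER together, and no library carried Pdgfb-CreER alone. Stabilized beta-catenin and the activated Cre itself therefore cannot be told apart in any stabilization comparison. RNA of 3 batches, each from 4 to 8 retinas of 2 to 4 mice, was pooled per library, so there is no spread between animals and no comparison was tested. The intervals below are those the authors deposited for each FPKM (fragments per kilobase of transcript, scaled to the fragments of the library). They describe the estimate within 1 library. How many of all genes had intervals apart or overlapping was not counted, so either state describes a gene without setting it apart from others. Which confidence level they carry was not stated.

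Norrin, the product of Ndp, is a ligand made by Muller glia that acts through Frizzled-4 on retinal endothelial cells and stabilizes beta-catenin there. Beta-catenin then works with TCF/LEF factors to switch on genes of the growing and barrier-forming retinal vessels. Prnd encodes doppel, a membrane-anchored relative of the prion protein that is expressed in testis and in endothelial cells of the young brain. Pglyrp1 encodes a secreted peptidoglycan recognition protein, an antibacterial protein best known from neutrophil granules. Txnip encodes an alpha-arrestin that binds thioredoxin, lowers glucose uptake and is itself induced by glucose through the MondoA and ChREBP factors.

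The sequence upstream of each gene is shown because the 3 genes were higher in the same libraries while their upstream sequences differ in composition. All 3 genes were matched by symbol in a RefSeq promoter table on GRCm38.p6, the assembly of the mm10 build, and the 250 bases before the annotated start are printed 5′ to 3′ on the plus strand, the strand of all 3 genes. Prnd has 2 annotated starts there, and the upstream one, which matches the deposited locus, was taken. Capitals mark matches on either strand to CTTTG (the core of a TCF/LEF site), CACGTG (an E-box), the CCAAT box, the TATA-like letters TATATA or a pair of CACGNG half-sites with 5 bases between them (a carbohydrate response element, which MondoA and ChREBP bind).
Prnd, chr2:131950611-131950860: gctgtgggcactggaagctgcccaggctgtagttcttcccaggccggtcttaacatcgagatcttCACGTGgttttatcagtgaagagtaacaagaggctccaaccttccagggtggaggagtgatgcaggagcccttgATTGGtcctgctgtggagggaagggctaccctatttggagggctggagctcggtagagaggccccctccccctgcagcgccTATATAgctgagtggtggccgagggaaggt
Pglyrp1, chr7:18884440-18884689: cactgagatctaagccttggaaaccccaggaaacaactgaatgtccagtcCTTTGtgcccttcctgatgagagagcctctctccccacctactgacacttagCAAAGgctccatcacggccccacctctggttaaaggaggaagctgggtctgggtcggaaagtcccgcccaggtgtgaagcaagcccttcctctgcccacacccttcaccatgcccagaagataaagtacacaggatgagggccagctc
Txnip, chr3:96557707-96557956: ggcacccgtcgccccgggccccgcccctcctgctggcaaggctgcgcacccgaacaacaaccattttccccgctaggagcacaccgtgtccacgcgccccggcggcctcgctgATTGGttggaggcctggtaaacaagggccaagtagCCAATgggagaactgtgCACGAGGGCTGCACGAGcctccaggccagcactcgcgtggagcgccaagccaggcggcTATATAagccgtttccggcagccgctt
The Prnd sequence held 1 E-box 185 bases upstream of the start, 1 reverse CCAAT 111 bases upstream and TATATA 30 bases upstream. The Pglyrp1 sequence held CTTTG 200 bases upstream and its reverse complement 148 bases upstream, and none of the other motifs. The Txnip sequence held TATATA 27 bases upstream, a CCAAT in each orientation, 137 and 102 bases upstream, and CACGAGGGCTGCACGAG from 85 to 69 bases upstream, a match to the paired half-sites. Over 32851 promoter windows of the same length, CTTTG was found in 48.6%, CCAAT in 33.8%, CACGTG in 6.02% and TATATA in 5.25%. The paired half-sites were found in 15 windows (0.0457%), that of Txnip among them, whereas CTTTG is too common for a match to set Pglyrp1 apart. The longer TCF/LEF match CTTTGAT, present in 3.21% of windows, was not found in these 3 sequences. GC content was 58.0% for Prnd, 55.6% for Pglyrp1 and 66.8% for Txnip. These motifs were chosen with the sequences in view, and a match is a description of letters only.

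Prnd lies on chromosome 2 (131950861 to 131956130, plus strand, GENCODE M21 on mm10), and its transcript Prnd-202 has 3 exons. Prnd was at 3.57 FPKM in the stabilized Ndp knockout (deposited interval 2.57 to 4.58) and 0.656 FPKM in the Ndp knockout (0.389 to 0.923). It was at 3.91 FPKM in the stabilized library (2.69 to 5.14), against 1.01 FPKM in WT (0.611 to 1.42). Both libraries with stabilized beta-catenin thus stood above both without it, with intervals apart, whereas the intervals overlapped within each of these pairs. In whole-retina RNA, fewer cells of a type and less RNA per cell cannot be told apart. By the deposited values the ratio was 5.44 without Ndp and 3.86 with it, or 1.82 and 1.54 as log2 ratios of FPKM + 0.5. Setting the lower bound of the first library over the upper bound of the second left ratios of 2.79 and 1.90.

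Pglyrp1 lies on chromosome 7, where the deposited locus runs from 18884690 to 18890438 on the plus strand. It was the lowest of the 3 genes in every library. Pglyrp1 was at 2.96 FPKM in the stabilized Ndp knockout (1.91 to 4.01) and 0.234 FPKM in the Ndp knockout (0.0132 to 0.455). It was at 1.72 FPKM in the stabilized library (1.01 to 2.42), against 0.426 FPKM in WT (0.133 to 0.720). The order was again stabilized libraries first, but here the stabilized Ndp knockout had the highest value. Its interval overlapped that of the stabilized library, and both were apart from those of the Ndp knockout and WT. The ratio of deposited values was 12.6 without Ndp, with a bound of 4.18, and 4.02 with Ndp, with a bound of 1.41. The log2 ratios of FPKM + 0.5 were 2.24 and 1.26, which understate the change of a gene this low. The half-width of the interval was 94.4% of the value in the Ndp knockout and 68.9% in WT, against 35.6% in the stabilized Ndp knockout, so the size of the first ratio is poorly fixed.

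Txnip lies on chromosome 3 (96557957 to 96561883, plus strand) and its transcript Txnip-202 has 8 exons. Txnip was at 24.7 FPKM in the stabilized Ndp knockout (20.9 to 28.5) and 11.5 FPKM in the Ndp knockout (9.17 to 13.8). It was at 29.6 FPKM in the stabilized library (25.3 to 33.9), against 13.8 FPKM in WT (11.1 to 16.4). Both stabilized libraries were again above both others with intervals apart. The ratios of the deposited values were 2.16 without Ndp and 2.15 with it (log2 1.08 in both), so the step was nearly equal on both backgrounds. The bounds were 1.52 and 1.54. Txnip was the gene with the narrowest intervals, with half-widths between 14.6% and 20.0% of the value.

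**Figure D1:**
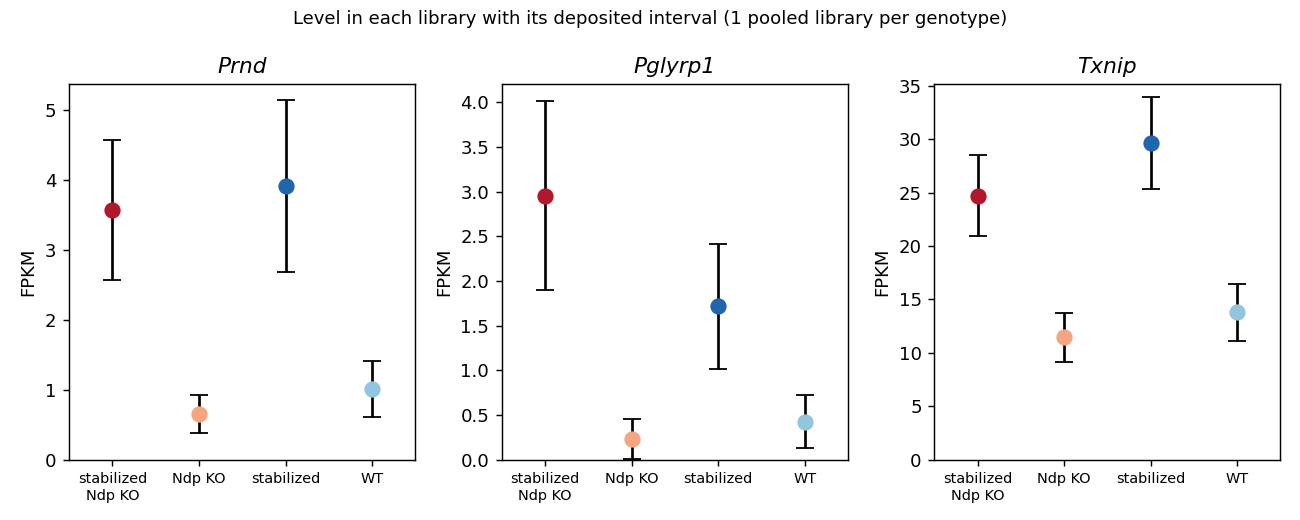
Level in FPKM of Prnd, Pglyrp1 and Txnip (1 panel each) in the stabilized Ndp knockout, Ndp knockout, stabilized and WT libraries. Points are the deposited values of 1 pooled library each and bars their deposited intervals, and in each panel both stabilized libraries stand above both others, for Txnip at 24.7 and 29.6 FPKM against 11.5 and 13.8 FPKM.

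Because FPKM are scaled to transcript length, the 3 genes can be set beside one another. The FPKM level of Txnip was 6.92 times that of Prnd in the stabilized Ndp knockout and 17.5 times in the Ndp knockout. In the stabilized library that ratio was 7.57 and in WT 13.6. Txnip was thus closer to Prnd wherever beta-catenin was stabilized, since its own step was the smaller. Relative to Pglyrp1, the level of Prnd was 1.21 times as high in the stabilized Ndp knockout and between 2.28 and 2.80 times as high in the other libraries. Txnip in WT exceeded 75.3% of all genes in the table, Prnd 43.8% and Pglyrp1 38.1%.

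All 3 genes averaged 1 FPKM or more and had an acceptable deposited status in every library, and so entered the set of 13150 genes compared. Pglyrp1 and Prnd passed through their stabilized libraries, since Pglyrp1 was below 1 FPKM in both others and Prnd below 1 FPKM in the Ndp knockout, and a gene that passes in this way had to differ. In the stabilized Ndp knockout over the Ndp knockout, 0.791% of the genes were at least 2-fold higher, and in the stabilized library over WT 0.7%. Nothing is read from the members' place among them, which the choice fixed. At least 2-fold higher in both comparisons were 36 genes (0.274%), of which 23 were not short RNA genes. Each of those 23 had intervals apart in both comparisons, but this was not counted over all genes and nothing is read from it. Of the 20 besides the members, 11 were on the endothelial or mural lists and 2, Hba-a1 and Hba-a2, on the erythroid list. These lists were chosen with earlier results of these data known, so nothing is read from those counts. Among the others, singled out after their values were seen, were the basement membrane genes Col4a1, Nid1 and Lama4. By mean level over the libraries Txnip was the second highest of the 23, and 18 of the 23 had a mean below 5 FPKM.

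**Figure D2:**
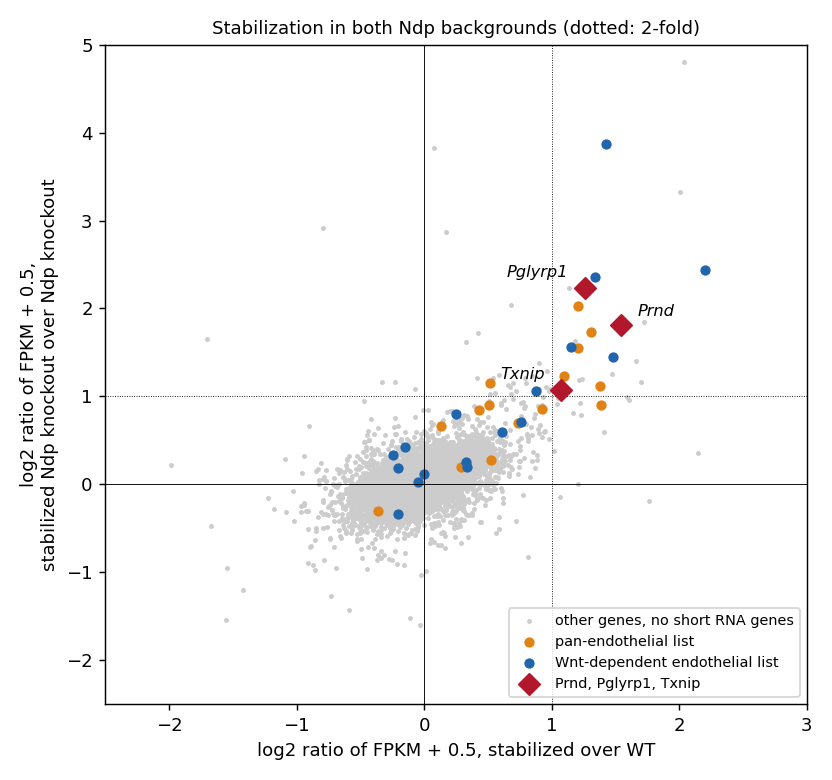
Log2 ratio of FPKM + 0.5 of each gene in the stabilized library over WT (horizontal axis) and in the stabilized Ndp knockout over the Ndp knockout (vertical axis), with short RNA genes left out and 9 genes outside the axes. Diamonds are Prnd, Pglyrp1 and Txnip, at 1.54, 1.26 and 1.08 across and 1.82, 2.24 and 1.08 up, and coloured points are tested members of the lists of pan-endothelial and of Wnt-dependent endothelial genes.

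The stabilized Ndp knockout against WT asks whether stabilization without the ligand brought the genes back to, or past, the level of an unmodified retina. All 3 were above WT with intervals apart, a state that was not counted over all genes. The log2 ratio was 1.43 for Prnd, 1.90 for Pglyrp1 and 0.82 for Txnip, and the ratios of the deposited values were 3.53, 6.94 and 1.79. Prnd and Pglyrp1 were beyond 2-fold, as were 0.745% of all genes. This comparison shares its libraries with the pairs that chose the genes and is no separate support for them.

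The Ndp knockout against WT asks what loss of the ligand alone did, a contrast that did not enter the choice but shares a library with each pair that did. The values were lower for all 3 genes, and all 3 pairs of intervals overlapped. Prnd was at 0.648 times, Pglyrp1 at 0.550 times and Txnip at 0.832 times the WT level by the deposited values. The log2 ratios of FPKM + 0.5 were -0.39, -0.34 and -0.26. On that scale none reached 1.5-fold, while 1.22% of all genes were at least 1.5-fold lower, but for the low genes this turns on the pseudocount. Without one Prnd and Pglyrp1 are past 1.5-fold, as the deposited values show, and with 0.1 Pglyrp1 was at -0.65. Of the tested genes, 2.09% had a lower ratio than Prnd, 2.88% a lower one than Pglyrp1 and 5.86% a lower one than Txnip. Ndp itself was at 0.869 FPKM in the stabilized Ndp knockout and 0.873 FPKM in the Ndp knockout, and at 2.35 FPKM in the stabilized library against 2.98 FPKM in WT, so it was lowest in the libraries labelled as lacking it. Sex differed along with Ndp. The inactive X chromosome's own transcript, Xist, was listed at 1.28 and 1.25 FPKM for the stabilized Ndp knockout and the Ndp knockout, against 130 and 135 FPKM for the stabilized and WT libraries. Loss of Ndp and male sex cannot be told apart in any contrast between these pairs, although the 3 genes are autosomal.

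With beta-catenin stabilized, the contrast between Ndp backgrounds had other values for Prnd and Pglyrp1 and nearly the same value for Txnip. In the stabilized Ndp knockout over the stabilized library the log2 ratio was -0.12 for Prnd, 0.64 for Pglyrp1 and -0.26 for Txnip, with overlapping intervals for all 3. Pglyrp1 was thus beyond 1.5-fold higher, as were 0.981% of all genes. The stabilization ratio without Ndp minus that with Ndp was 0.27 for Prnd, 0.98 for Pglyrp1 and -0.00 for Txnip on the log2 scale. With 1 library per genotype this difference has no error of its own and was not tested.

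The genes nearest in pattern were found among 11738 genes by the distance between profiles of log2 FPKM + 0.5 over the 4 libraries, each centred on its own mean. The choice of members fixed much of that profile, so the neighbours are a description. Nearest to Prnd was Gdpd3, a gene of the glycerophosphodiester phosphodiesterase family, at a distance of 0.16. Gdpd3 was at 5.13 FPKM in the stabilized Ndp knockout and 1.06 FPKM in the Ndp knockout, and at 5.52 FPKM in the stabilized library, against 1.32 FPKM in WT. Then came Vwa1, which encodes an extracellular matrix protein, the adhesion receptor gene Eltd1, the endothelial receptor gene Tie1 and Cd93, a receptor of endothelial and myeloid cells, at distances of 0.33 to 0.36. Prnd was the sixth nearest gene to Pglyrp1, at 0.54.

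Nearest to Pglyrp1 was Mfsd2a, the lipid transporter of barrier endothelium, at 0.36. Mfsd2a was at 4.86 FPKM in the stabilized Ndp knockout and 0.545 FPKM in the Ndp knockout, and at 3.80 FPKM in the stabilized library, against 1.20 FPKM in WT. Cd93 (0.37), Gdpd3 (0.53), the serine protease inhibitor gene Serpina3h (0.53) and Tie1 (0.54) followed. Pglyrp1 had a higher value in the stabilized Ndp knockout than in the stabilized library, with a log2 ratio of 0.64 and overlapping intervals. Mfsd2a (0.32), Cd93 (0.27), Serpina3h (0.17) and Tie1 (0.09) were also higher there, and Gdpd3 was at -0.10. The median over all tested genes was 0.04.

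The neighbours of Txnip were other genes than those of Prnd and Pglyrp1. They were the ETS factor gene Ets1 (0.17), the phospholipid transfer protein gene Pltp (0.18), the cationic amino acid transporter gene Slc7a1 (0.18), the apelin receptor gene Aplnr (0.20) and the fatty aldehyde dehydrogenase gene Aldh3a2 (0.23). Only Aldh3a2 was at a similar level, with 30.1 FPKM in the stabilized Ndp knockout and 14.8 FPKM in the Ndp knockout, and 30.7 FPKM in the stabilized library, against 15.8 FPKM in WT. Prnd was 98th and Pglyrp1 1460th in nearness to Txnip. In the other direction, Txnip was 14th in nearness to Prnd and 30th to Pglyrp1, at the same distances of 0.62 and 0.93. Such ranks depend on how many genes lie around each profile.

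**Figure D3:**
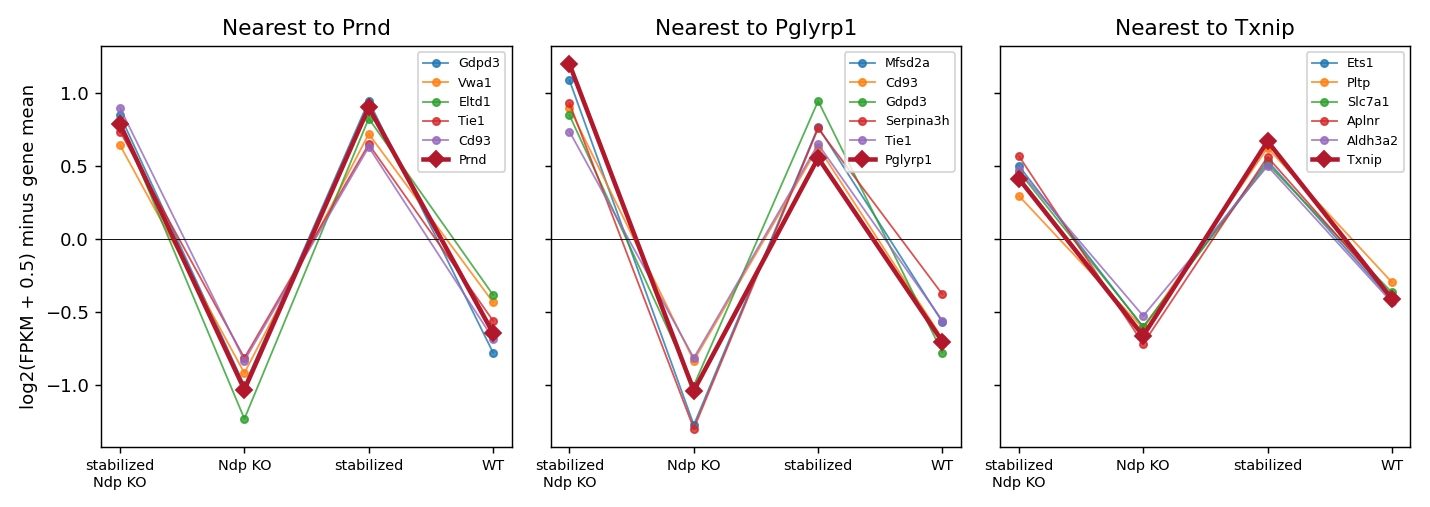
Profiles of log2 FPKM + 0.5 minus each gene's mean over the stabilized Ndp knockout, Ndp knockout, stabilized and WT libraries, for Prnd, Pglyrp1 and Txnip (thick lines, diamonds) and the 5 genes nearest to each (thin lines). Lines join libraries only to guide the eye, and the profile of Txnip is the shallowest of the 3, with log2 ratios of 1.08 in both stabilization comparisons.

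Endothelial genes were higher in the same libraries as the members. This list and those of other cell types were chosen with earlier results of these data known, so their counts are descriptions. Of 20 pan-endothelial genes 15 were tested, and 12 were at least 1.5-fold higher without Ndp and 8 with Ndp, against 1.76% and 1.67% of all genes. Their median log2 ratio was 0.90 without Ndp and 0.73 with Ndp, against 0.03 and -0.02 over all genes. Pecam1, an adhesion gene of all endothelium, was at 4.08 FPKM in the stabilized Ndp knockout and 2.02 FPKM in the Ndp knockout, and at 4.12 FPKM in the stabilized library, against 1.93 FPKM in WT. Furthest from 0 among them were Eltd1 (2.03 and 1.21), Cd93 (1.73 and 1.31), Tie1 (1.55 and 1.21) and the endoglin gene Eng (1.12 and 1.38). None was 1.5-fold lower, as 0.92% and 1.71% of all genes were, and Emcn, the gene of endomucin, had log2 ratios of -0.30 and -0.36.

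Set beside that list, the members did not all stand in the same place. The members were chosen for being higher in these 2 comparisons, so their place beside the list and the shares below are descriptions. None of the 15 endothelial genes had a higher log2 ratio than Pglyrp1 without Ndp and 3 had one with Ndp. For Prnd the counts were 1 and 0, and for Txnip 6 in each comparison. The summed FPKM of the 20 endothelial genes was 116 in the stabilized Ndp knockout and 73.3 in the Ndp knockout, a ratio of 1.58, and 112 in the stabilized library and 75.4 in WT, a ratio of 1.49. As a percentage of that sum, Prnd was at 3.08% in the stabilized Ndp knockout and 0.895% in the Ndp knockout, and at 3.49% in the stabilized library and 1.34% in WT. Pglyrp1 was at 2.55% in the stabilized Ndp knockout and 0.320% in the Ndp knockout, and at 1.53% in the stabilized library and 0.565% in WT. Txnip was at 21.3% in the stabilized Ndp knockout and 15.6% in the Ndp knockout, and at 26.4% in the stabilized library and 18.3% in WT. The share in the stabilized library of each pair was thus 3.44 and 2.60 times that in its partner for Prnd, 7.97 and 2.71 times for Pglyrp1 and 1.36 and 1.45 times for Txnip. Kdr, the VEGF receptor gene, was the highest gene in that sum (45.7 FPKM in the stabilized Ndp knockout) and had log2 ratios of 0.20 and 0.29, below the list's median. With Kdr left out, a choice made after seeing the data, the sum was 70.3 in the stabilized Ndp knockout and 33.4 in the Ndp knockout, and 64.5 in the stabilized library and 36.4 in WT. The ratios between shares were then 2.59 and 2.18 for Prnd and 6.003 and 2.27 for Pglyrp1. For Txnip they were 1.03 and 1.21, so without Ndp its ratio was close to that of the endothelial sum. The part that vessel content has in the members' values was not tested.

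Of 24 genes of brain and retinal endothelium listed for their dependence on Wnt signalling or their barrier role, 17 were tested. This list too was chosen with earlier results of these data known, so its counts are descriptions. Of these, 9 were at least 1.5-fold higher without Ndp and 8 with Ndp, against 1.76% and 1.67% of all genes, and none was 1.5-fold lower, against 0.92% and 1.71%. The median log2 ratio was 0.59 without Ndp and 0.34 with Ndp. Cldn5 (claudin-5) had ratios of 3.87 and 1.43, the thyroid hormone transporter gene Slco1c1 2.44 and 2.20, Mfsd2a 2.36 and 1.34, and the amino acid transporter gene Slc38a5 1.45 and 1.48. In the Ndp knockout over WT, 4 of the 17 were at least 1.5-fold lower, against 1.22% of all genes, and Cldn5 was at -2.66. The values of Prnd, Pglyrp1 and Txnip there lay between -0.39 and -0.26, but the pseudocount shrinks those of the low genes. By the deposited values Prnd was at 0.648 times and Pglyrp1 at 0.550 times the WT level, both past 1.5-fold.

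Genes of some other cell types moved with the same libraries and those of others did not. Of 10 mural cell genes 6 were tested and 4 were at least 1.5-fold higher in each stabilization comparison, against 1.76% and 1.67% of all genes, among them Acta2, the smooth muscle actin gene, at 1.63 and 1.19. Of 4 tested erythroid genes, 3 were 1.5-fold higher without Ndp and 4 with Ndp, against the same shares of all genes. The summed FPKM of 8 erythroid genes were 176 in the stabilized Ndp knockout and 76.0 in the Ndp knockout, and 164 in the stabilized library and 70.1 in WT. Since Pglyrp1 is a granule gene of neutrophils, 14 granulocyte genes were examined. Their summed FPKM lay at 7.93 in the stabilized Ndp knockout and 6.61 in the Ndp knockout, and at 8.60 in the stabilized library and 7.44 in WT, with Cxcr2 the highest single gene (3.05 to 3.84 FPKM). The myeloperoxidase gene Mpo was listed at 0 in all 4 libraries and the elastase gene Elane in all but the stabilized library (0.108 FPKM). S100a9, among the most abundant RNAs of neutrophils, was at 0.470 FPKM in the stabilized Ndp knockout and 0.0831 FPKM in the Ndp knockout, and at 1.05 FPKM in the stabilized library, against 0.0450 FPKM in WT. S100a8, its partner in the calprotectin complex, was at 0.457 FPKM in the stabilized Ndp knockout and listed at 0 in the Ndp knockout, and was at 0.201 FPKM in the stabilized library, against 0.0897 FPKM in WT. Both genes were thus higher in each stabilized library than in its partner. The order of the 4 libraries was that of Pglyrp1 for S100a8 but not for S100a9. These 2 genes were below the minimum level and were chosen after their values were seen. Among other genes below that level, Ltf and Mmp8 were higher in each stabilized library too, at no more than 0.0507 FPKM. Ngp and Camp were not. Ngp was listed at 0 in the stabilized Ndp knockout against 0.0310 FPKM in the Ndp knockout. Camp was listed at 0 in the stabilized library against 0.0348 FPKM in WT. In the other comparison each was higher with stabilization. Of the 3 tested granulocyte genes none was 1.5-fold higher in either comparison, as 1.76% and 1.67% of all genes were. The tested genes were Lcn2 (log2 ratios of 0.35 and 0.34), Cxcr2 (0.06 and -0.03) and Prtn3 (-0.25 and -0.30). The part of blood or mural cells in the members' values was not tested. Of 10 tested microglial genes none was 1.5-fold higher in either comparison, and 1 was lower with Ndp, where 1.71% of all genes were. Of 6 tested genes of fenestrated endothelium, 0 were 1.5-fold higher without Ndp and 1 with Ndp. In that list 1 was lower without Ndp, where 0.92% of all genes were. Of 4 astrocyte genes 1 was 1.5-fold higher without Ndp and 2 with Ndp, with Pdgfra, a growth factor receptor gene, at 0.93 and 0.76. Of 10 ganglion cell genes 3, and of 7 pigment epithelium genes 3, were 1.5-fold higher with Ndp, and in each list 0 without Ndp. Of 10 rod, 9 cone and 10 Muller glial genes none was 1.5-fold higher in either stabilization comparison, where 1.76% and 1.67% of all genes were. In the same lists 1 rod and 2 cone genes were 1.5-fold lower without Ndp, and 1 cone and 1 Muller glial gene with Ndp, against 0.92% and 1.71% of all genes. The cone gene Opn1mw, an opsin gene, was 1.5-fold lower in both, at -0.95 and -1.55.

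The gene families of the members held few tested genes besides the members. Of all genes, 1.76% were 1.5-fold higher without Ndp and 1.67% with Ndp, so lists this small would hold few or none. In the prion family, Prnp, the prion protein gene that neighbours Prnd, had log2 ratios of 0.18 without Ndp and 0.23 with Ndp, and Sprn, which encodes Shadoo, 0.08 and 0.03. Prnp was at 130 FPKM in the stabilized Ndp knockout and 115 FPKM in the Ndp knockout, and at 121 FPKM in the stabilized library, against 103 FPKM in WT. Prnp ends 12430 bases before Prnd begins, and the deposited locus of Rassf2, a Ras association domain gene, begins 36720 bases beyond Prnd with ratios of 0.31 and 0.41. A readthrough gene, Prn, is annotated across Prnp and Prnd and shares 1914 of the 1969 bases of Prnd-202. Prn was not analysed here, so fragments of Prnd and of the readthrough cannot be told apart.

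Of 14 genes of peptidoglycan sensing only 3 were expressed enough to be tested. Besides Pglyrp1 these were the adaptor genes Ripk2 (0.06 and 0.21) and Myd88 (0.13 and -0.21). Pglyrp2, Pglyrp3 and Pglyrp4 were listed at 0 in all 4 libraries, so Pglyrp1 was the only one of its family with a value above 0. Next to Pglyrp1, 446 bases beyond its end, Ccdc61, a coiled-coil gene, had log2 ratios of -0.00 and 0.31. On the other side Mill2, 26037 bases away, did not exceed 0.113 FPKM.

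Of the 6 alpha-arrestin genes 5 were tested, and Txnip was the only one at least 1.5-fold higher in either stabilization comparison. Its own place there was fixed by the choice of members. Of all genes, 1.76% and 1.67% were 1.5-fold higher and 0.92% and 1.71% lower. At such shares a list of this size would hold few or none. Arrdc4, which glucose also induces through MondoA, had ratios of 0.41 without Ndp and 0.39 with Ndp. Arrdc4 was at 6.03 FPKM in the stabilized Ndp knockout and 4.42 FPKM in the Ndp knockout, and at 7.10 FPKM in the stabilized library, against 5.30 FPKM in WT. Its order of the libraries was that of Txnip, with smaller steps. Arrdc3 was at -0.11 and -0.38, Arrdc1 at 0.30 and 0.20 and Arrdc2 at 0.16 and 0.39. Of the 14 thioredoxin system genes all were tested, and Txnip was again the single one beyond 1.5-fold, with the same limits. Txn1, the thioredoxin that Txnip binds, was at 69.7 FPKM in the stabilized Ndp knockout and 66.8 FPKM in the Ndp knockout, and at 65.5 FPKM in the stabilized library, against 73.5 FPKM in WT.

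In the list of glucose sensing and uptake 13 of 16 genes were tested and Txnip, chosen for its rise, was the only one beyond 1.5-fold in either stabilization comparison. Of all genes, 1.76% and 1.67% were 1.5-fold higher and 0.92% and 1.71% lower. Mlxip, the MondoA gene, had ratios of -0.00 and 0.24, and its partner gene Mlx -0.01 and -0.22. Slc2a1, the GLUT1 glucose transporter gene, was at 94.5 FPKM in the stabilized Ndp knockout and 92.6 FPKM in the Ndp knockout, and at 77.1 FPKM in the stabilized library, against 79.9 FPKM in WT. Klf10, another glucose-induced gene, had ratios of 0.32 and 0.39. Of 10 inflammasome genes 3 were tested, none was 1.5-fold higher in either comparison, and Il18 was lower at -0.81 in the stabilized library over WT, where 1.71% of all genes were 1.5-fold lower. The Nlrp3 gene, whose protein Txnip can bind, lay between 0.0377 and 0.0565 FPKM.

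The antisense gene Gm15441 overlaps Txnip on the minus strand and shares 606 of the 2827 bases of Txnip-202. The labels do not say whether strand was kept, so the division of fragments between both genes is uncertain. Gm15441 was listed at 1.06 FPKM in the stabilized Ndp knockout and 1.11 FPKM in the Ndp knockout, and at 1.06 FPKM in the stabilized library, against 1.40 FPKM in WT, far below Txnip in each. Polr3gl, an RNA polymerase III subunit gene 11073 bases beyond the deposited Txnip locus, had ratios of 0.05 and -0.03. On the other side Hfe2, 26552 bases away, did not exceed 0.248 FPKM.

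**Figure D4:**
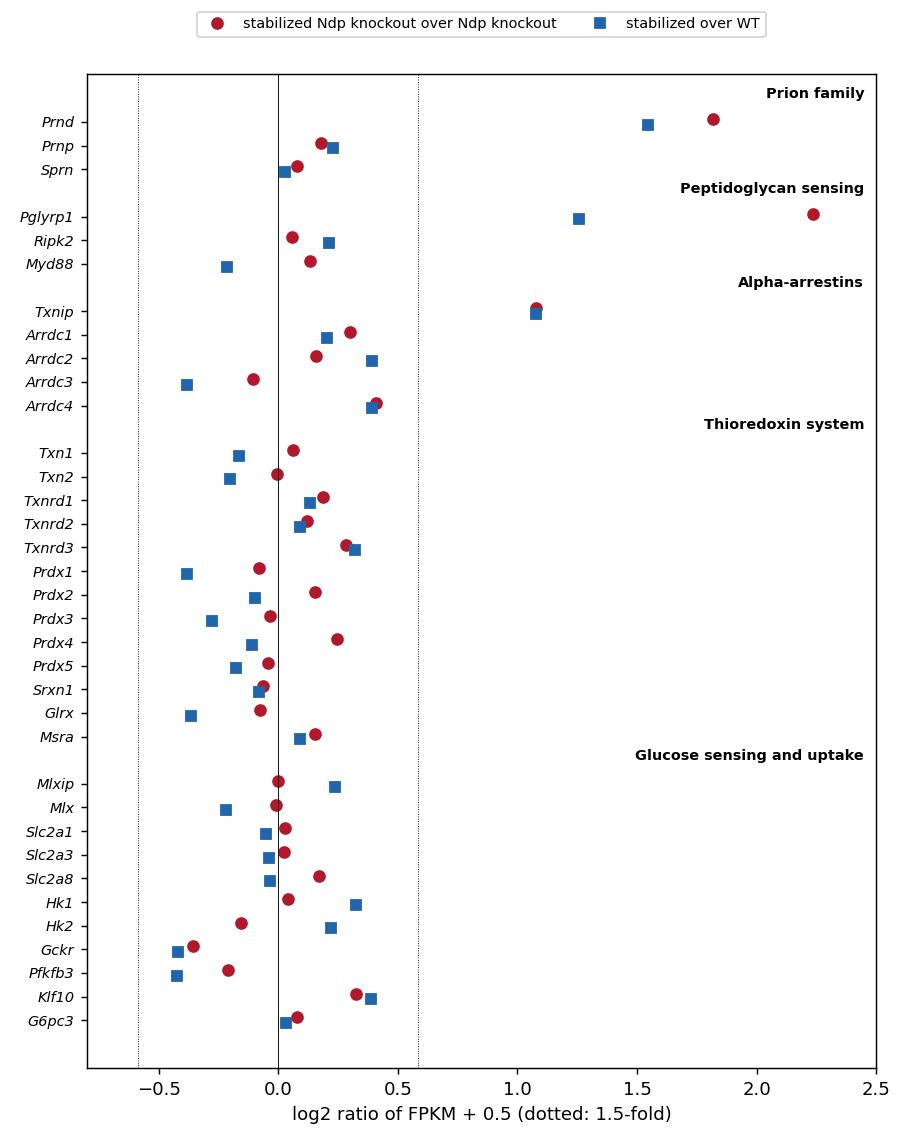
Log2 ratio of FPKM + 0.5 in the stabilized Ndp knockout over the Ndp knockout (circles) and in the stabilized library over WT (squares) for all tested genes of 5 lists that hold the relatives and partners of Prnd, Pglyrp1 and Txnip. Dotted lines mark 1.5-fold, and in this plot Prnd (1.82 and 1.54), Pglyrp1 (2.24 and 1.26) and Txnip (1.08 and 1.08) are the 3 genes beyond them. The 3 were chosen for being higher in these comparisons.

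The deposited FPKM summed to between 405525 and 427109 per library, and the median interval half-width over tested genes was between 17.4% and 17.6% of the value. The depth of the libraries is unknown here, so the intervals are the only measure of precision.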

How the data were processed

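RNA of whole retinas was sequenced in 4 pooled libraries made with a TruSeq kit, per the labels' protocols. The authors deposited FPKM values with interval bounds and a status per gene, made with TopHat and Cuffdiff on mm10, per the submitters' processing notes. Tool versions, annotation and read totals were not given in the sources used here. Values in FPKM compare genes within their own library. Columns were matched to libraries by the number in each sample's description, and groups came from the labels.

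Log2 ratios were computed on FPKM + 0.5 for genes with a mean of at least 1 FPKM and status OK in every library. With 1 library per group nothing was tested, and genes at least 2-fold apart, or 1.5-fold apart for lists, were counted. The members and the gene lists were chosen with earlier results of these data known. The text names the members, the 5 genes nearest in pattern, the nearest neighbours at each locus, relatives of each member, and up to 4 genes per list with the largest mean change among those 1.5-fold apart in the same direction in both stabilization comparisons. Ndp, Xist, Gm15441, Prn, Pecam1, Kdr, Emcn, Elane, Mpo, Cxcr2, Lcn2, Prtn3, S100a8, S100a9, Ltf, Mmp8, Ngp, Camp, Ripk2, Myd88, Txn1, Mlxip, Mlx, Slc2a1, Klf10, Il18 and Nlrp3 were named outside that rule, after their values were seen. Short RNA genes were recognised by symbol and GENCODE M21 type. The alternatives were pseudocounts of 0.1 and 1, a minimum mean of 5 FPKM or no minimum, centring ratios on the median gene, rescaling to one total (TPM), admitting every status, a 1.5-fold limit and leaving out short RNA genes. Leaving Kdr out of the endothelial sum was added after seeing the data. The counting was run on simulated libraries, which were copies of the WT values with set fold changes and no noise. That checks only the arithmetic of the counting and says nothing of error in single libraries. Python 3.11.15, numpy 2.4.6, pandas 2.3.3 and matplotlib 3.10.9 were used.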

Additional observations from a re-analysis of the deposited data

Results flagged for a closer look

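Pglyrp1 had log2 ratios of opposite sign between Ndp backgrounds in the pairs of libraries with and without stabilized beta-catenin. Its log2 ratio of FPKM + 0.5 was 0.64 in the stabilized Ndp knockout over the stabilized library (2.96 and 1.72 FPKM), and -0.34 in the Ndp knockout over WT (0.234 and 0.426 FPKM). With 1 library per genotype this difference was not tested, and the deposited intervals overlapped in both pairs. The values of the second pair were both below 1 FPKM, so a change of direction is not established. Sex differed along with Ndp in both pairs, and the 2 cannot be told apart. Prnd and Txnip were lower without Ndp in both pairs.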

How the results depend on the processing

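No paired analysis was possible because each genotype has 1 library. All log2 ratios of Prnd, Pglyrp1 and Txnip kept their direction under each alternative that gave a value, and the minimum of 5 FPKM leaves out Prnd and Pglyrp1. The single change of sign was in the difference between the 2 stabilization ratios of Txnip, which was 0.00281 in place of -0.00148 with a pseudocount of 0.1 and is near 0 in both. The pseudocount set the size of the ratios of the low genes. Rescaling to one total (TPM) raised all values while the same 0.5 was added. Its ratios therefore also reflect a smaller weight of the pseudocount. In the stabilized Ndp knockout over the Ndp knockout, Prnd was at 2.28 with a pseudocount of 0.1, 1.47 with 1 and 2.10 after rescaling to one total (TPM), and Pglyrp1 at 3.19, 1.68 and 2.81. In the stabilized library over WT, Prnd was at 1.85 with 0.1, and Pglyrp1 at 1.79 with 0.1, 0.93 with 1 and 1.65 after rescaling, so that Pglyrp1 fell just short of 2-fold with a pseudocount of 1. In the stabilized Ndp knockout over WT, Prnd was at 1.72 with 0.1, and Pglyrp1 at 2.54 with 0.1, 1.47 with 1 and 2.30 after rescaling. In the Ndp knockout over WT, Pglyrp1 was at -0.65 with 0.1, beyond 1.5-fold. In the stabilized Ndp knockout over the stabilized library Pglyrp1 was at 0.54 with a pseudocount of 1, short of 1.5-fold.

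The counts of all genes moved by over 1.5 times in these cases. Without short RNA genes, 57 in place of 104 genes were at least 2-fold higher in the stabilized Ndp knockout over the Ndp knockout, 38 in place of 92 in the stabilized library over WT, 57 in place of 98 in the stabilized Ndp knockout over WT and 23 in place of 36 in both stabilization comparisons. At least 1.5-fold lower in the Ndp knockout over WT were then 62 in place of 160, and 1.5-fold higher in the stabilized Ndp knockout over the stabilized library 66 in place of 129. With a minimum of 5 FPKM the counts were 58 for the stabilized Ndp knockout over the Ndp knockout, 59 for it over WT, 80 for it over the stabilized library and 18 for both stabilization comparisons. At 1.5-fold in place of 2-fold they were 231 for the stabilized Ndp knockout over the Ndp knockout, 220 for the stabilized library over WT, 236 for the stabilized Ndp knockout over WT and 96 in both. With a minimum of 5 FPKM the list counts of genes 1.5-fold higher, without and with Ndp, were 2 and 1 in place of 12 and 8 for pan-endothelial genes, 3 and 2 in place of 9 and 8 for Wnt-dependent endothelial genes and 1 and 0 in place of 4 and 4 for mural genes. With no minimum, 7 mural genes were higher in each comparison, and 2 granulocyte genes without Ndp and 1 with Ndp in place of 0 and 0. The cause of these shifts beyond the construction of each setting was not tested.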
